A study of Homo sapiens with 6 samples.

Results

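The genes described here are FOS, FOSB, FOSL1, FOSL2, JUN, JUNB, JUND, EGR1, IER2 and IER3. They encode the AP-1 factors of the Fos and Jun families, the zinc finger factor EGR1 and a pair of immediate early response proteins. They were chosen by name, and all 10 were found among the 28847 genes of the deposited table, each in 1 row. The RNA came from cells labelled THP-1, an established human monocytic leukaemia line used as a macrophage model. There were 3 libraries labelled as given RBP4, and 3 labelled THP-1 alone, the control. RBP4 is the plasma carrier of retinol, and the series calls the added protein recombinant human RBP4 and the cells M0 (unpolarized) macrophages. It gives no dose, no time and no other agent. Nor does it say whether the libraries of a group came from separate cultures, so the p-values measure the spread between these libraries, which may be technical.

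AP-1 is a dimer of basic leucine zipper (bZIP) proteins. Jun proteins pair with each other or with Fos proteins, whereas Fos proteins need a partner to bind DNA. Many of these genes, FOS, JUN and EGR1 above all, are textbook immediate early genes: growth factors, phorbol esters and stress switch them on within minutes through MAP kinases, serum response factor and CREB, without new protein synthesis, and their messages decay fast. In myeloid cells AP-1 and EGR1 are known for their part in differentiation towards macrophages. In bulk RNA, fewer cells with a transcript cannot be told apart from less of it per cell.

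Depth, as recovered from the normalized values, was 15994483 to 16420517 reads in the RBP4 libraries and 15202000 to 16149118 reads in the control libraries. Markers of the labelled cell type were mostly low. Of 18 monocyte and macrophage markers, 15 were analysed here, and 3 of them (CD33, SPI1 and CTSS) reached 10 CPM in every library, where CPM is the count scaled to the library total. CD14 averaged 0 CPM in the RBP4 libraries and 0.0858 CPM in the control libraries. The summed level of the 15 was 134.7 to 142.1 CPM in the RBP4 libraries and 123.2 to 130.5 CPM in the control libraries. Only 6 of them were high enough to be tested, with 3 raised and 1 lowered. CD68 averaged 0.0821 CPM in the RBP4 libraries and 0.0213 CPM in the control libraries. Of 15 erythroid and megakaryocytic markers, 13 reached 10 CPM in every library. The sum of all 15 was 1989 to 2055 CPM in the RBP4 libraries and 2276 to 2290 CPM in the control libraries. TFRC, which was lowered, averaged 483.0 CPM in the RBP4 and 901.5 CPM in the control libraries, a larger gap than that of the sums. RHAG, which was raised, averaged 552.3 CPM in the RBP4 and 469.7 CPM in the control libraries. By the limma test given below, 6 of the 15 were raised and 3 lowered, beside 24.5% raised and 26.1% lowered of all tested genes. Of 6 squamous and epithelial markers, 2 were analysed here. Their sums were 33.8 to 37.5 CPM in the RBP4 and 51.2 to 55.5 CPM in the control libraries. Nearly all of this was EPCAM, at 35.7 CPM on average in the RBP4 and 52.3 CPM in the control libraries. TP63 averaged 0.411 CPM in the RBP4 and 0.467 CPM in the control libraries. T and NK cell, B cell, fibroblast and endothelial markers summed to at most 13.9 CPM in any library, and no gene of any marker list was at 0 in all 6 libraries. Mitochondrially encoded genes took 7.58% to 7.69% of the reads in the RBP4 libraries and 5.90% to 6.10% in the control libraries. The part of these differences in the results below was not tested.

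The window from 250 bases before to 50 bases after the annotated start was taken from RefSeq (GRCh38.p14) for 8 of the 10 genes. FOSL1 and IER3 had no entry. The windows of FOS and FOSB, which rose most, and of EGR1 and JUND, which fell, are printed 5′ to 3′ to show the letters of these elements in place. Capitals mark matches on either strand to the TATA box (TATAAA), the cyclic AMP response element (CRE, TGACGTCA), the AP-1 site (TGACTCA), an AP-1-like site (TGACATCA) or the CArG box, the element that serum response factor binds. The windows are chr14:75278578-75278877 on the plus strand for FOS, chr19:45467746-45468045 on the plus strand for FOSB, chr5:138465229-138465528 on the plus strand for EGR1 and chr19:18281573-18281872 on the minus strand for JUND.
FOS: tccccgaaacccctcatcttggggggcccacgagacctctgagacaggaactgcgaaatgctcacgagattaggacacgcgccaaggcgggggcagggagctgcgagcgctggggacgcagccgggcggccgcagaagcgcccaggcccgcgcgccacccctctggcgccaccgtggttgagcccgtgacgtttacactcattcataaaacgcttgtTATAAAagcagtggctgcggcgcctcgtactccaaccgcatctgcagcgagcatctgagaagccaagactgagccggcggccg
FOSB: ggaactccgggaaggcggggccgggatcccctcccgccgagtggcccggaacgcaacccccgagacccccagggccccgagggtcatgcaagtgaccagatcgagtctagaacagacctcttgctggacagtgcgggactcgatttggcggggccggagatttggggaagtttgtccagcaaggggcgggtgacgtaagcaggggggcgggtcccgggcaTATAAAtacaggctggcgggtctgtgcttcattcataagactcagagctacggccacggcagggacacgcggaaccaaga
EGR1: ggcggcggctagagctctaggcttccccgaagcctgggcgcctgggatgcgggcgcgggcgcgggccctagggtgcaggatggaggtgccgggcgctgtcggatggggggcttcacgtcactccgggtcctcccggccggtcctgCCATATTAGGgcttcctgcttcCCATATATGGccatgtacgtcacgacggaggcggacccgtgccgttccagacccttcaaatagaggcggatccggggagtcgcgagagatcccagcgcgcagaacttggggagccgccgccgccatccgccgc
JUND: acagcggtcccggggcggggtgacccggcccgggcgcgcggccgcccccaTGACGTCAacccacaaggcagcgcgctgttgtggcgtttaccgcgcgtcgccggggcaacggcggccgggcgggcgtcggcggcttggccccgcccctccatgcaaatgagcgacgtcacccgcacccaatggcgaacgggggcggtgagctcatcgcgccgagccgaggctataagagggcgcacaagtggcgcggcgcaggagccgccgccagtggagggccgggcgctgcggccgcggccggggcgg

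A TATA box stood at -33 to -28 in FOS, at -30 to -25 in FOSB and at -31 to -26 in JUNB, counted from the first transcribed base as 1. It occurred in 3 of the 8 windows and in 11.5% of all 35116 windows. CArG boxes stood at -105 to -96 (CCATATTAGG) and at -83 to -74 (CCATATATGG) in EGR1, in 1 of the 8 windows and in 1.29% of all. A CRE stood at -200 to -193 in JUND (1.85% of all windows), the AP-1-like site at -67 to -60 in JUN (2.61%) and an AP-1 site at 5 to 11 in FOSL2 (4.95%). The 8 windows held none of the ETS letters CCGGAAGT (4.14% of all windows) or the EGR letters GCGTGGGCG (0.795%), and 6 of them held the SP1 letters GGGCGG (45.0% of all windows). A match describes the letters of the window alone. Bases beyond the windows were not searched, so a window without a match does not mean that the gene lacks the element.

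FOS was 2.95-fold, FOSB 1.85-fold and IER3 1.5-fold higher in the RBP4 libraries, while JUND and EGR1 fell slightly. JUN and IER2, which have high levels per gene length, differed by 1.08-fold and 1.05-fold. At an adjusted p under 0.05 (limma's moderated test on log2 of the normalized reads plus 1, adjusted with Benjamini-Hochberg over 15676 genes), 6 of the 10 rose, 2 fell and 2 did not pass. Across the table, the share of tested genes that passed was 50.6%, with 24.5% raised and 26.1% lowered. For 8 of the 10 genes, and for 56.2% of all genes tested, every library of one group lay above every library of the other. The median log2 fold change was 0.17 over the 10 genes and -0.002 over all tested genes. In size alone the median was 0.21 over the 10 genes and 0.23 over all. Of the 10, FOS, FOSB, JUND and IER3 had an adjusted p under 0.05 in the authors' deposited table. There, 5931 of all 28847 genes (20.6%) passed. That share counts the many genes too low to be among the 15676 tested here, whereas all 10 genes were tested. It is therefore not a like background for 4 of 10. The authors' deposited table gives FOS a log2 fold change of 1.56 (adjusted p = 1.45e-05).

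**Figure D1:**
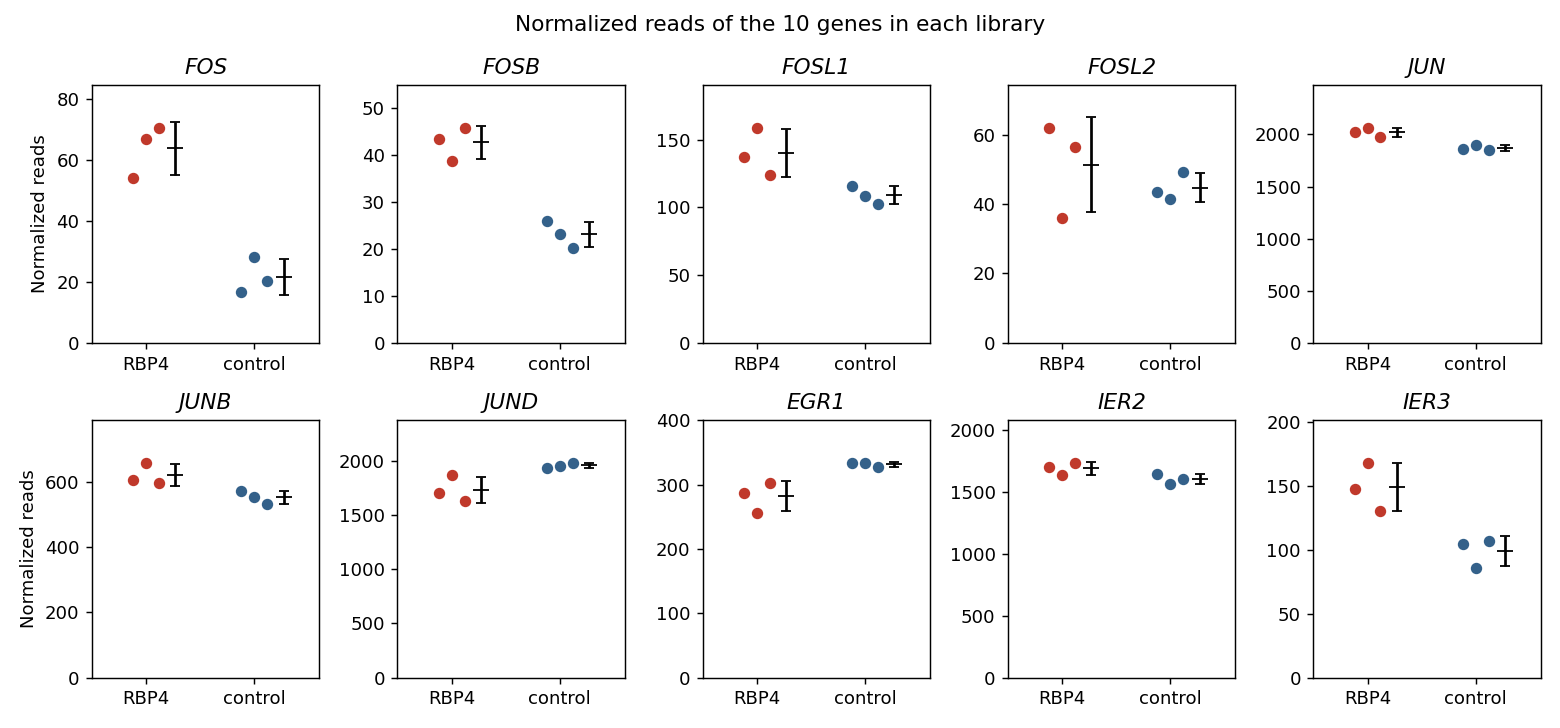
Normalized reads (y axis, from 0) of each gene in the 3 RBP4 and 3 control libraries, with the mean and SD beside the points. FOS, FOSB and IER3 show a clear gap between the groups, JUND and EGR1 lie lower in the RBP4 libraries, and FOSL2 and IER2 overlap.

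FOS (ENSG00000170345, chromosome 14, 75278774 to 75282230 on GRCh38, plus strand) encodes c-Fos, the founding member of its family. It had 54.1, 67.0 and 70.6 normalized reads in RBP4 libraries 1, 2 and 3, against 16.6, 28.2 and 20.3 in control libraries 1, 2 and 3. Every RBP4 library was above every control library. The means were 63.9 ± 8.66 in the RBP4 libraries and 21.7 ± 5.92 in the control libraries (SD, n = 3 each), a 2.95-fold difference, with a log2 fold change of 1.54 (SE 0.23, limma adjusted p = 6.97e-08). These values rest on 56 to 74 reads per RBP4 library and 16 to 28 reads per control library. A rise at least as high was found for 1.26% of all tested genes. Among the 2336 tested genes averaging 30 to 100 normalized reads, the range that holds FOS, 30.2% rose and 9.76% fell, and 1 in 10 had a log2 fold change above 0.94.

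FOSB (ENSG00000125740, chromosome 19, 45467995 to 45475179, plus strand), whose protein is closely related to c-Fos, had 43.5, 38.7 and 45.8 normalized reads in the RBP4 libraries, against 25.9, 23.1 and 20.3 in the control libraries. The groups did not overlap, and the log2 fold change was 0.86 (SE 0.25, limma adjusted p = 0.00248). FOSB lies in the same range of 30 to 100 normalized reads as FOS, where 30.2% of the tested genes rose. There, 1 in 10 had a log2 fold change above 0.94. FOSL1 (ENSG00000175592, chromosome 11, 65892049 to 65900573, minus strand), which encodes FRA1, lacks the strong activation domain of c-Fos. It had 137.3, 158.6 and 124.0 normalized reads in the RBP4 libraries, against 115.9, 108.7 and 102.8 in the control libraries. It rose 1.28-fold (log2 fold change 0.35, limma adjusted p = 0.0210), with the lowest RBP4 library close to the highest control library. FOSL2 (ENSG00000075426, chromosome 2, 28392448 to 28417312, plus strand), which encodes FRA2, had 61.9, 35.9 and 56.3 normalized reads in the RBP4 libraries, against 43.5, 41.3 and 49.3 in the control libraries. RBP4 library 2 was the lowest of all 6, and the log2 fold change of 0.16 had an interval from -0.26 to 0.58 (95%, limma adjusted p = 0.540). FOSL1 no longer passed when RBP4 library 2 (limma adjusted p = 0.164) or control library 3 (0.0640) was left out, or in DESeq2 (adjusted p = 0.0616). Its adjusted p spanned 0.00605 to 0.164 across all alternatives.

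The 3 Jun genes moved by less than FOS, FOSB or IER3. JUN (ENSG00000177606, chromosome 1, 58780788 to 58784327, minus strand), which encodes c-Jun, the main target of the JNK kinases, had 2020, 2062 and 1973 normalized reads in the RBP4 libraries, against 1863, 1900 and 1850 in the control libraries. Without overlap, this was a 1.08-fold rise (log2 fold change 0.11, SE 0.038, limma adjusted p = 0.0128). JUNB (ENSG00000171223, chromosome 19, 12791496 to 12793315, plus strand), a weaker activator that can hold back c-Jun, had 604.1, 658.1 and 596.1 normalized reads in the RBP4 libraries, against 570.3, 552.4 and 532.2 in the control libraries. It rose 1.12-fold (log2 fold change 0.17, SE 0.062, limma adjusted p = 0.0209). The libraries do not mark the strand, and JUNB shares 259 exonic bases with HOOK2 on the other strand, so reads there cannot be assigned. HOOK2 averaged 512 normalized reads, a level near that of JUNB, and its part in the JUNB values was not tested. Without RBP4 library 2 neither call held (limma adjusted p = 0.0697 for JUN and 0.151 for JUNB). The JUNB call was also lost without control library 3 (0.0803) and in DESeq2 (adjusted p = 0.0571). Across all alternatives the adjusted p spanned 7.41e-05 to 0.0697 for JUN and 0.00121 to 0.151 for JUNB.

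JUND (ENSG00000130522, chromosome 19, 18279760 to 18281622, minus strand), which unlike its relatives is made steadily in resting cells, was the Jun gene that fell. It had 1698, 1866 and 1633 normalized reads in the RBP4 libraries, against 1931, 1954 and 1982 in the control libraries. All 3 RBP4 libraries lay below the controls, with RBP4 library 2 the closest, and the log2 fold change was -0.18 (SE 0.041, limma adjusted p = 0.000218). With the libraries scaled to equal totals it was -0.11 (limma adjusted p = 0.0233), and RBP4 library 2 then overlapped the controls. With the authors' scaling, 52.3% of the 2879 tested genes averaging 1000 to 3000 normalized reads, the range of JUND, fell and 16.3% rose. The median log2 fold change in that range was -0.11.

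EGR1 (ENSG00000120738, chromosome 5, 138465490 to 138469315, plus strand), a zinc finger activator that promotes macrophage over granulocyte fate, had 287.1, 256.8 and 303.3 normalized reads in the RBP4 libraries, against 334.3, 334.1 and 327.7 in the control libraries. After scaling, the control values lay close together and all above the RBP4 libraries, although their recovered reads were 323, 332 and 306. EGR1 fell by 0.24 on the log2 scale (SE 0.084, limma adjusted p = 0.0156). EGR1 no longer passed at equal library totals (limma adjusted p = 0.0911), in DESeq2 (adjusted p = 0.0698) or without RBP4 library 2 (limma adjusted p = 0.131), and its adjusted p spanned 0.00939 to 0.131. Its relatives EGR2 and EGR3 were near 0. EGR2 had 2.90, 0 and 0.954 normalized reads in the RBP4 libraries, against 0, 0 and 3.21 in the control libraries. EGR3 had 3.87, 1.89 and 0 in the RBP4 libraries and 0 in all control libraries, where 3 reads, the limit that a count of 0 allows, correspond to 3.02 to 3.21 normalized reads. Neither was tested.

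IER2 (ENSG00000160888, chromosome 19, 13150415 to 13154908, plus strand), a nuclear protein of the early response, had 1701, 1634 and 1737 normalized reads in the RBP4 libraries, against 1649, 1564 and 1604 in the control libraries. The groups overlapped, and the log2 fold change was 0.07 (interval -0.01 to 0.16, limma adjusted p = 0.123). With the libraries scaled to equal totals it was 0.14 and passed (limma adjusted p = 0.00266; 0.00266 to 0.340 over the alternatives). IER3 (ENSG00000137331, chromosome 6, 30743199 to 30744554, minus strand), also called IEX-1, is a survival regulator that NF-kB and p53 act on. It had 147.9, 168.1 and 130.7 normalized reads in the RBP4 libraries, against 104.5, 85.5 and 107.1 in the control libraries. The groups did not overlap, and the log2 fold change was 0.58 (SE 0.13, limma adjusted p = 0.000193). Among the 2422 tested genes averaging 100 to 300 normalized reads, the range of IER3 and FOSL1, 34.5% rose and 13% fell. There, 1 in 10 had a log2 fold change above 0.62. IER3-AS1, an antisense transcript that shares 359 exonic bases with IER3, averaged 2.97 normalized reads. An antisense gene without a value here shares 946 exonic bases with IER2.

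**Figure D2:**
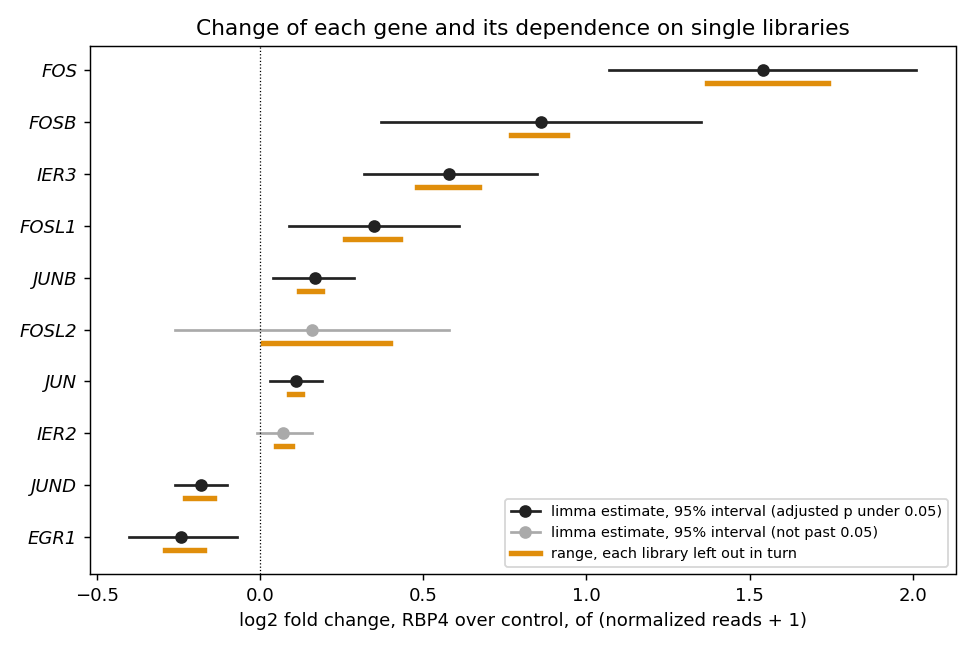
Log2 fold change, RBP4 over control, of each gene (x axis) with its 95% limma interval, and below it the range of estimates when each of the 6 libraries was left out in turn. No gene changed sign, and the FOSL2 range reaches down to 0.01.

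RBP4 library 2 was the highest of the 3 for FOSL1, JUN, JUNB, JUND and IER3, and the lowest for FOSB, FOSL2, EGR1 and IER2. Without it, 4 genes passed in limma (FOS, FOSB, JUND and IER3) in place of 8. Among all tested genes, 7102 passed without it, 7044 without RBP4 library 1 and 7934 with all libraries.

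Per gene length the order of levels was the same in both groups at the top. The levels are reads per kilobase of merged exons, scaled to the library total (RPKM), which understates genes with long alternative exons. JUND led with 60.0 ± 4.17 RPKM in the RBP4 libraries and 64.6 ± 0.725 RPKM in the control libraries (SD, n = 3 each). JUN followed with 36.8 ± 0.840 in RBP4 and 32.5 ± 0.463 RPKM in control libraries, and IER2 with 35.5 ± 1.09 in RBP4 and 32.2 ± 0.885 RPKM in control libraries. The values of JUN and IER2 overlapped in both groups. JUNB came next, at 22.0 ± 1.19 RPKM in the RBP4 and 18.7 ± 0.677 RPKM in the control libraries.

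The lower ranks differed between the groups. IER3 stood at 7.09 ± 0.894 RPKM in the RBP4 and 4.50 ± 0.534 RPKM in the control libraries, and EGR1 at 5.81 ± 0.483 in RBP4 and 6.51 ± 0.0841 RPKM in control libraries. EGR1 was above IER3 in every control library, whereas the pair overlapped in the RBP4 libraries. FOSL1, at 4.79 ± 0.599 RPKM in the RBP4 and 3.56 ± 0.221 RPKM in the control libraries, was the most abundant Fos gene. FOS stood at 1.27 ± 0.170 in RBP4 and 0.412 ± 0.112 RPKM in control libraries. It overlapped FOSL2 in the control libraries (FOSL2 at 0.463 ± 0.124 RPKM in the RBP4 and 0.384 ± 0.035 RPKM in the control libraries) and was above FOSL2 and FOSB in every RBP4 library. FOSB stood at 0.496 ± 0.0418 in RBP4 and 0.256 ± 0.0311 RPKM in control libraries.

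**Figure D3:**
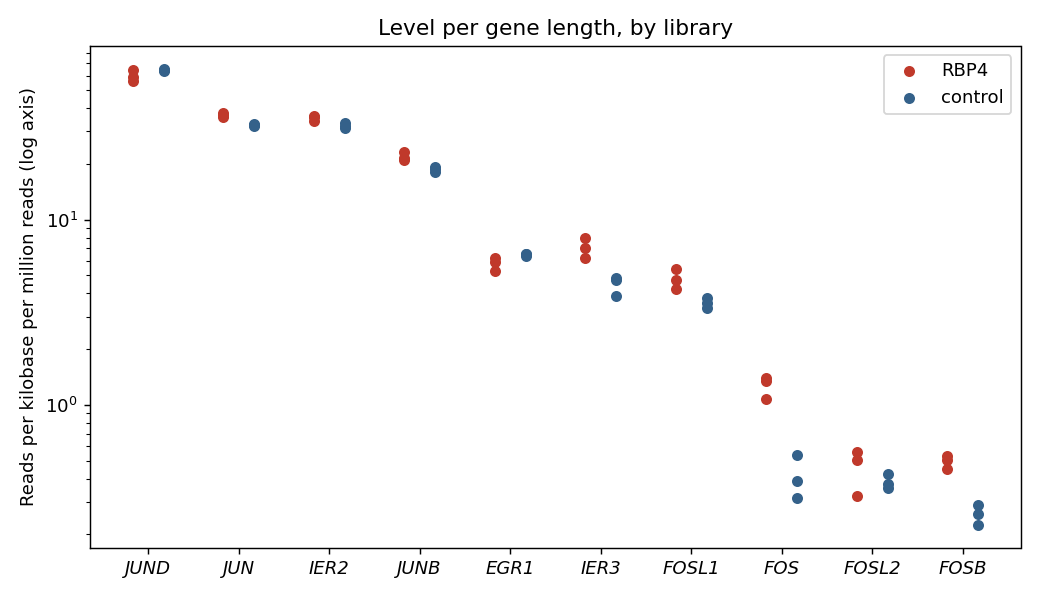
RPKM of each gene (log y axis) in each RBP4 (red) and control (blue) library, ordered by the control mean. JUND, JUN, IER2 and JUNB lie above the other 6 genes in every library, and FOS, FOSL2 and FOSB lie lowest.

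Summed over its 4 genes, the Fos family had 6.67 to 7.53 RPKM in the RBP4 libraries and 4.38 to 4.76 RPKM in the control libraries. The 3 Jun genes had 113.5 to 125.5 RPKM in the RBP4 libraries and 115.4 to 116.3 RPKM in the control libraries. Fos transcripts therefore made up 5.52% to 5.66% of the Fos and Jun sum in the RBP4 libraries and 3.66% to 3.96% in the control libraries. Within the Fos family, FOSL1 took 63.4% to 72.0% in the RBP4 libraries and 75.6% to 79.5% in the control libraries, and FOS took 15.8% to 21.0% in the RBP4 libraries and 6.62% to 11.4% in the control libraries. Within the Jun family, JUND took 49.8% to 51.5% in the RBP4 libraries and 55.3% to 56.6% in the control libraries. These shares describe messages and carry no test.

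The related lists below were read against the table-wide shares of 24.5% raised and 26.1% lowered. Among 19 tested genes of AP-1 partners and related bZIP factors, not all of them partners, 9 rose and 3 fell. The median log2 fold change was 0.13 (11 raised and 1 lowered at equal library totals). ATF3, a stress-induced repressor that dimerizes with Jun proteins, had 1297, 1356 and 1367 normalized reads in the RBP4 libraries, against 402.6, 377.3 and 444.4 in the control libraries. Its 3.28-fold rise (log2 fold change 1.72, SE 0.058, limma adjusted p = 1.61e-37) left a wide gap between the groups. JDP2, a repressor of AP-1, averaged 460.9 ± 5.19 normalized reads in the RBP4 and 204.2 ± 14.3 in the control libraries (limma adjusted p = 8.59e-20). BACH2, a bZIP repressor known from B cells, averaged 149.6 ± 2.86 in RBP4 and 85.8 ± 23.5 in control libraries (limma adjusted p = 4.43e-06).

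Upstream, kinase messages fell more often than they rose. Of 27 tested genes of the MAP kinase and RSK cascades, 14 were lowered and 2 raised (median log2 fold change -0.13). The counts were 7 lowered and 3 raised at equal library totals, 9 and 2 in DESeq2, 9 and 2 without RBP4 library 2, and 13 and 1 without control library 2. Of the 27, 23 averaged 300 to 3000 normalized reads and 13 of these fell, a range in which 27.7% (300 to 1000) and 52.3% (1000 to 3000) of all tested genes fell. MAP2K1, a kinase that activates MAP kinases, averaged 673.0 ± 25.9 normalized reads in the RBP4 and 826.8 ± 32.1 in the control libraries (limma adjusted p = 7.51e-06).

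SRF, which encodes serum response factor, averaged 1314 ± 69.6 normalized reads in the RBP4 and 1324 ± 10.2 in the control libraries (log2 fold change -0.01, interval -0.10 to 0.08, limma adjusted p = 0.839). Of 6 tested genes of SRF and its partners, 1 fell and none rose (1 raised and 1 lowered at equal library totals or without control library 3). The gene that fell was ELK4, a ternary complex factor, with 1512 ± 56.5 normalized reads in the RBP4 and 2415 ± 29.8 in the control libraries (log2 fold change -0.68, limma adjusted p = 1.71e-24). Among 5 tested genes of the EGR-related list (zinc finger factors of GC-rich sites and corepressors), 1 rose and 3 fell. None was raised in DESeq2 (2 lowered), without RBP4 library 1 (3 lowered), without RBP4 library 2 (2 lowered) or without control library 3 (2 lowered). NAB2, a corepressor that EGR1 itself induces, averaged 377.8 ± 22.5 in RBP4 and 324.0 ± 25.8 in control libraries (limma adjusted p = 0.0163), WT1 556.4 ± 14.5 in RBP4 and 697.3 ± 36.0 in control libraries (limma adjusted p = 5.87e-06), and SP1 2739 ± 115.7 in RBP4 and 3113 ± 134.7 in control libraries (limma adjusted p = 1.08e-05).

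Other immediate early genes were split. Of 30 tested, 14 rose and 8 fell, with a median log2 fold change of 0.16. Of the 15 that averaged under 300 normalized reads 8 rose, at levels where 19.5% to 34.5% of all tested genes rose. MYC, the growth-promoting factor, had 5511, 5572 and 5309 normalized reads in the RBP4 libraries, against 7761, 7202 and 7549 in the control libraries, and fell by 0.46 on the log2 scale (SE 0.028, limma adjusted p = 1.78e-22). PPP1R15A (GADD34), a phosphatase subunit that restores translation after stress, averaged 3046 ± 56.5 in the RBP4 and 2173 ± 111.2 in the control libraries (limma adjusted p = 4.81e-19). SRSF3, a splicing factor, had 4842, 4736 and 4964 normalized reads in the RBP4 libraries, against 3729, 3657 and 3855 in the control libraries (limma adjusted p = 6.27e-17). The nuclear receptor gene NR4A1 overlapped between the groups, with 147.9, 156.7 and 104.9 normalized reads in the RBP4 libraries, against 119.0, 114.7 and 133.9 in the control libraries (limma adjusted p = 0.413). DUSP1, a phosphatase that inactivates MAP kinases, averaged 317.3 ± 21.3 in RBP4 and 267.8 ± 5.67 in control libraries (log2 fold change 0.24, limma adjusted p = 0.0147).

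Factors that control the decay of AU-rich messages, a feature of FOS and many early genes, counted 2 raised and 8 lowered of 12 tested (median log2 fold change -0.20). Of the 12, 11 averaged over 1000 normalized reads and 8 of these fell, at levels where 52.3% (1000 to 3000) and 69.2% (over 3000) of all tested genes fell. HNRNPD, which encodes the decay factor AUF1, averaged 6436 ± 183.2 normalized reads in the RBP4 and 8006 ± 350.2 in the control libraries (limma adjusted p = 1.15e-14). ZFP36L2, which promotes decay, averaged 2546 ± 129.3 in RBP4 and 3292 ± 97.1 in control libraries (limma adjusted p = 2.81e-14), and ELAVL1, which stabilizes such messages, 2214 ± 94.4 in RBP4 and 2679 ± 18.2 in control libraries (limma adjusted p = 1.12e-09). Of 15 tested genes of AP-1 turnover and co-regulation, 1 rose and 8 fell (2 and 6 at equal library totals, 2 and 7 without control library 3, and 2 and 8 in edgeR, with a pseudocount of 5 or over protein-coding genes alone). Of the 15, 9 averaged over 1000 normalized reads, and 6 of these fell. The lowered genes included DDB1, a ubiquitin ligase adaptor (7797 ± 158.3 in RBP4 and 9721 ± 177.4 in control libraries, limma adjusted p = 2e-17) and CSNK2A1, the catalytic subunit of casein kinase 2 (3219 ± 33.9 in RBP4 and 3857 ± 96.8 in control libraries, limma adjusted p = 1.45e-10).

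Of 13 tested textbook targets of AP-1, 8 rose and 2 fell, with a median log2 fold change of 0.27 (9 and 0 at equal library totals, 5 and 1 in DESeq2, 5 and 2 under a filter of 5 CPM, 4 and 2 without RBP4 library 2, 6 and 1 without RBP4 library 3, and 5 and 1 without control library 3). Of the 7 that averaged under 300 normalized reads 6 rose, at levels where 19.5% to 34.5% of all tested genes rose. CCND1, the cyclin D1 gene, averaged 538.7 ± 19.2 normalized reads in the RBP4 and 302.2 ± 16.7 in the control libraries (limma adjusted p = 9.69e-16). CD44, a hyaluronan receptor, averaged 246.6 ± 6.20 in RBP4 and 108.9 ± 18.2 in control libraries (limma adjusted p = 9.81e-14), and the integrin gene ITGAX 33.1 ± 1.74 in RBP4 and 8.62 ± 2.53 in control libraries (limma adjusted p = 2.53e-06). The AP-1 targets MMP1, MMP9, IL6, TNF and CCL2 were too low to be tested. Of 13 tested targets of EGR1, 5 rose and 3 fell (6 and 2 at equal library totals). Among those past the threshold were CDKN1A, the cell cycle inhibitor p21 (420.6 ± 24.1 in RBP4 and 162.6 ± 28.5 in control libraries, limma adjusted p = 2.1e-18) and the cytokine gene TGFB1 (2120 ± 65.4 in RBP4 and 2884 ± 139.2 in control libraries, limma adjusted p = 6.93e-17).

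**Figure D4:**
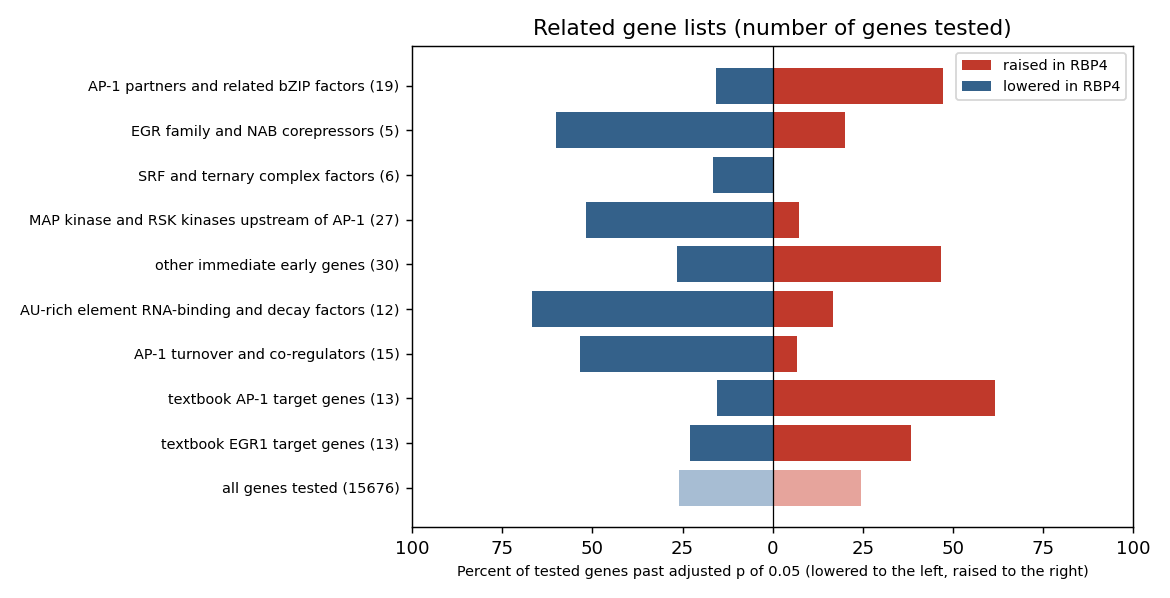
Percent of the tested genes of each list that rose (right) or fell (left) at a limma adjusted p under 0.05, with the number tested, beside all 15676 genes. Raised genes outnumber lowered ones in the bZIP factor, early gene and target lists, and lowered ones outnumber raised ones in the other 5 lists.

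Over the 6 libraries, the genes outside the group whose profile lay nearest to that of FOS were WSCD2, CLGN and C1orf116, with root mean square distances of 0.118, 0.133 and 0.141 on the log2 scale after centring each gene on its control mean. CLGN, which encodes the endoplasmic reticulum chaperone calmegin, had 93.8, 85.0 and 104.9 normalized reads in the RBP4 libraries, against 25.9, 42.3 and 32.1 in the control libraries. These genes were chosen for this likeness, which is a description.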

How the data were processed

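Libraries were made from poly-T selected RNA with a NEBNext Ultra kit and sequenced on an Illumina platform, per the labels' protocols. No aligner or counter is given in the sources used here. Per gene and library, the authors deposited a normalized signal, per the file headers, with group means, log2 fold changes and p-values of their own. Every signal value was a whole multiple of 1 step per library (100% whole within 0.01 reads), so reads were recovered by division. All 28847 genes had the start, end and merged exon length of GENCODE release 29 (GRCh38). Because the table holds no raw counts, the main test was limma 3.58.1 (R 4.3.3) with trended, robust variances on log2(signal + 1), for genes with at least 10 normalized reads in at least 3 libraries, in place of the edgeR test planned for counts. Benjamini-Hochberg adjustment ran over all 15676 genes, two-sided, at 0.05. edgeR 4.0.16 and DESeq2 1.42.0 on recovered reads were alternatives. Fold changes on this scale understate low genes. Named genes were all members, the 3 of each list with the smallest p past the threshold, and a few fixed genes (RBP4 itself was not analysed here, and some genes that the rule names are not reported here). The members and lists were chosen with earlier results of these data known.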

Additional observations from a re-analysis of the deposited data

How the results depend on the processing

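Over 16 alternatives, 146 of 157 values of the 10 genes kept their direction and their side of the threshold, 10 lost the call, 1 gained it and none reversed. Of the 10 genes, 8 passed in the limma fit, 5 with DESeq2, and 4 to 8 when each library was left out in turn (4 without RBP4 library 2). The genes past the threshold numbered 7934, with 6655 at 5 CPM or more in 3 libraries, 6510 with DESeq2 and 7044 to 7521 with a library left out. With the libraries scaled to equal totals the log2 fold change of all genes had a median of 0.066, against -0.002 with the authors' scaling, and raised genes made up 61.7% of the calls, against 48.4%. The replicate numbers did not pair the libraries: deviations of same-numbered libraries correlated at 0.00365, -0.0079 and -0.0169, and not every library correlated best with its own number. With a replicate block, 7829 genes and 8 of the 10 passed. FOS, FOSB and FOSL2 fell under the filter of 5 CPM and gave no value there. FOS, FOSB and FOSL2 rest on fewer than 80 reads per library, which limits their precision.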
